A study of Mus musculus with 4 samples.

Results

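Peritubular myoid cells were chosen by the UMI counts of marker genes in each cell of single-cell RNA-seq libraries of the mouse testis, and 2074 of 22567 retained cells met the rule, out of 46001 barcodes in the deposited matrices. A cell was retained when 1000 to 4500 genes were detected in it. It was a member when at least 3 of the 6 genes Tnnt2, Cyp26b1, Sct, Col4a3, Lamc3 and Myh11 (P) had a unique molecular identifier (UMI), when this number exceeded both the number detected among Sfrp1, Angptl7, Lum, Col9a2, Col6a3 and Col5a2 (F) and the number among Adamts5, Nrk, Igf1, Plac8, Penk and Dlk1 (S), and when it held at most 1 UMI of the germ cell genes Ddx4 and Dazl together and at most 1 of the pericyte gene Rgs5. Of 3806 retained cells with 3 or more genes of P, 2374 had more of P than of F and of S, 2078 also passed the germ cell limit and 2074 also passed the Rgs5 limit. A further 118 cells above 4500 genes and 41 cells below 1000 genes met all other parts of the rule and were not members.

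The study examined the rete testis (RT), the epithelial channel that drains the seminiferous tubules, and the valve of Sertoli cells at its border. Tissue of the RT and the adjacent tubules was pooled from 3 pups per library at postnatal day 14, on a C57BL/6 background, with 2 control and 2 Sox17-cKO libraries. The sample labels give SF1Cre for the controls and SF1Cre:Sox17flox/flox for Sox17-cKO, whereas the study's methods describe the controls as Sox17flox/flox animals without Cre, so whether the controls carried Cre cannot be told from these sources. SF1 is the product of Nr5a1, whose regulatory sequence drives Cre in somatic cells of the gonad, and recombination in peritubular myoid cells was not measured here. The interstitial fraction released by collagenase was discarded before the tubules were dissociated.

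Peritubular myoid cells are flat, smooth muscle-like cells that surround the seminiferous tubule, contract to move luminal fluid and sperm, and lay down the tubular basement membrane together with Sertoli cells. They respond to Desert hedgehog released by Sertoli cells, and are a source of growth factors for spermatogonial stem cells. CYP26B1, which degrades retinoic acid, is placed in these cells as a barrier around the tubule.

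Values of the 4 libraries are given throughout in the order control 1, control 2, Sox17-cKO 1 and Sox17-cKO 2, as UMIs per 1000000 UMIs of the members of a library (a level), and differences are log2 fold changes ± standard error. The libraries held 280, 782, 149 and 863 members with 1854469, 6313567, 1159254 and 5621307 UMIs in total. The median member held 5478, 7932.5, 6802 and 6221 UMIs, and the median mitochondrial share was 3.54% to 4.99%. No barcode was shared between libraries among the members, while each pair of libraries shared 7 to 9 barcodes among retained cells.

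The label was checked against Myh11, Acta2, Tnnt2, Cyp26b1 and Sct, of which only Acta2 lies outside the rule. A UMI of Acta2, smooth muscle alpha-actin, was found in 2046 of 2074 members, or 97.3% to 98.8% of the members of a library, at a median of 5478 to 7932.5 UMIs per cell. In Sertoli-like cells, which should lack it, 21.6% to 57.3% of cells had a UMI at a median of 2842 to 5533 UMIs. A UMI was also found in 84.8% to 94.9% of Lum/Sfrp1 and 88.9% to 100% of Rgs5 cells, so detection of Acta2 alone did not set the members apart from these classes. Its level was 11904, 16606, 12524 and 16975 in the members, and 169 to 219 in Sertoli-like cells. Since Sertoli-like cells were limited to fewer than 3 genes of P, this contrast was partly set by the choice of cells. The gate markers were all present, and their levels are a description, since they chose the cells. Tnnt2, cardiac troponin T, stood at 494, 635, 466 and 612. Cyp26b1 stood at 1356, 1326, 1449 and 1438, and Sct, which encodes the hormone secretin, at 1398, 960.3, 1297 and 817. The remaining sorting genes are Col4a3, a basement membrane collagen chain, at 1229, 1038, 1391 and 872, Lamc3, a laminin chain, at 649, 709, 662 and 770.1, and Myh11, smooth muscle myosin heavy chain, at 2043, 1725, 1858 and 1654.

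**Figure D1:**
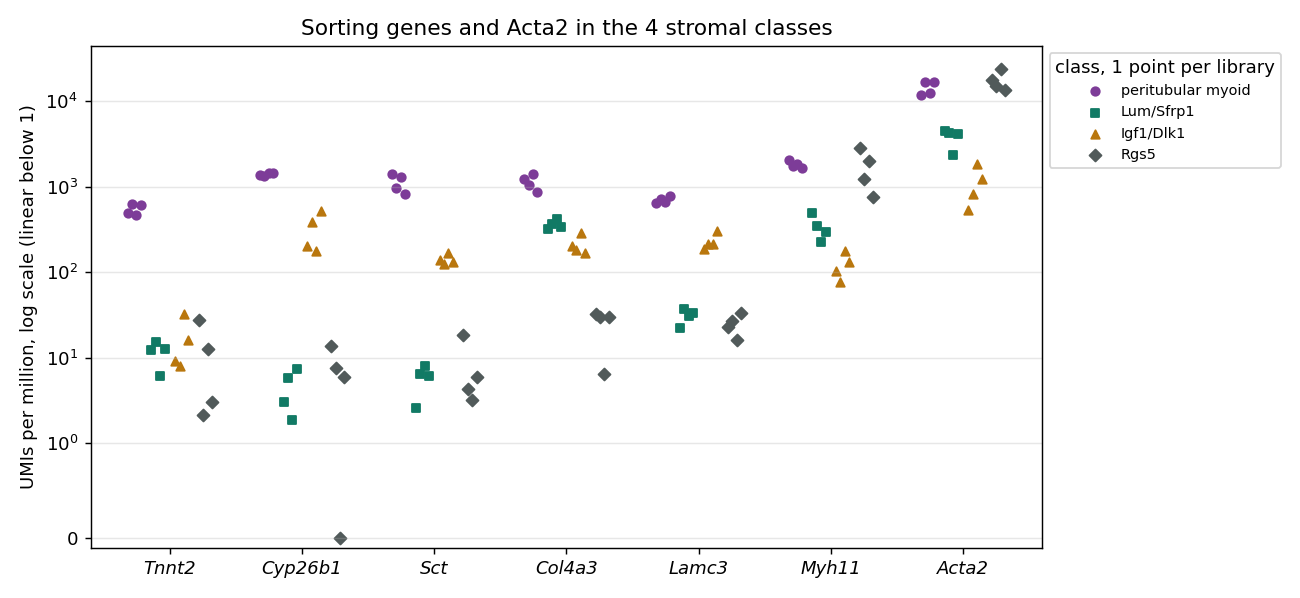
Levels of the 6 sorting genes and Acta2, in UMIs per 1000000 on a log scale that is linear below 1, with 1 point per library for each of 4 stromal classes. The peritubular myoid points of Tnnt2 sit between 466 and 635, while Acta2 and Myh11 are also high in Rgs5 cells.

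In the GRCm38 annotation (GENCODE vM21), all 6 sorting genes and Acta2 are protein-coding genes. Tnnt2 lies on chromosome 1 from 135836354 to 135852260, Col4a3 on chromosome 1 from 82586921 to 82722059, and Cyp26b1 on chromosome 6 from 84571414 to 84593908. Sct lies on chromosome 7 from 141278330 to 141279133, Lamc3 on chromosome 2 from 31887291 to 31946539, and Myh11 on chromosome 16 from 14194535 to 14291372. Acta2 lies on chromosome 19 from 34241090 to 34255590.

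Members with more genes of P also carried more Acta2. All 6 genes of P were detected in 1579 cells, 5 in 366, 4 in 93 and 3 in 36. Acta2, which did not enter the rule, stood at 13014 to 18337 over the libraries in members with 6 genes, at 8960.4 to 14578 with 5, at 3678 to 8606 with 4, and at 529 to 2194 with 3. The same order held in all 4 libraries. Ptch1, the hedgehog receptor, reached 386 to 666 with 6 genes and 0 to 155 with 3, and Cnn1, the actin-binding calponin, 406 to 597 with 6 genes and 0 to 41.0 with 3. The median depth was 8788.5, 4877, 5720 and 7138 UMIs in members with 3, 4, 5 and 6 genes. Cells with 4 and 5 genes were thus shallower than those with 6, and cells with 3 genes, which carried the least Acta2, were deeper. The part of depth in how many genes were detected was not tested. In 40 members without a Myh11 UMI, Acta2 stood at 485 to 1689 against 12049 to 17408 in the 2034 others. The median depth of these 2 groups was 8993 and 6809 UMIs. In 146 members without a Sct UMI, Acta2 stood at 6409 to 13545.

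**Figure D2:**
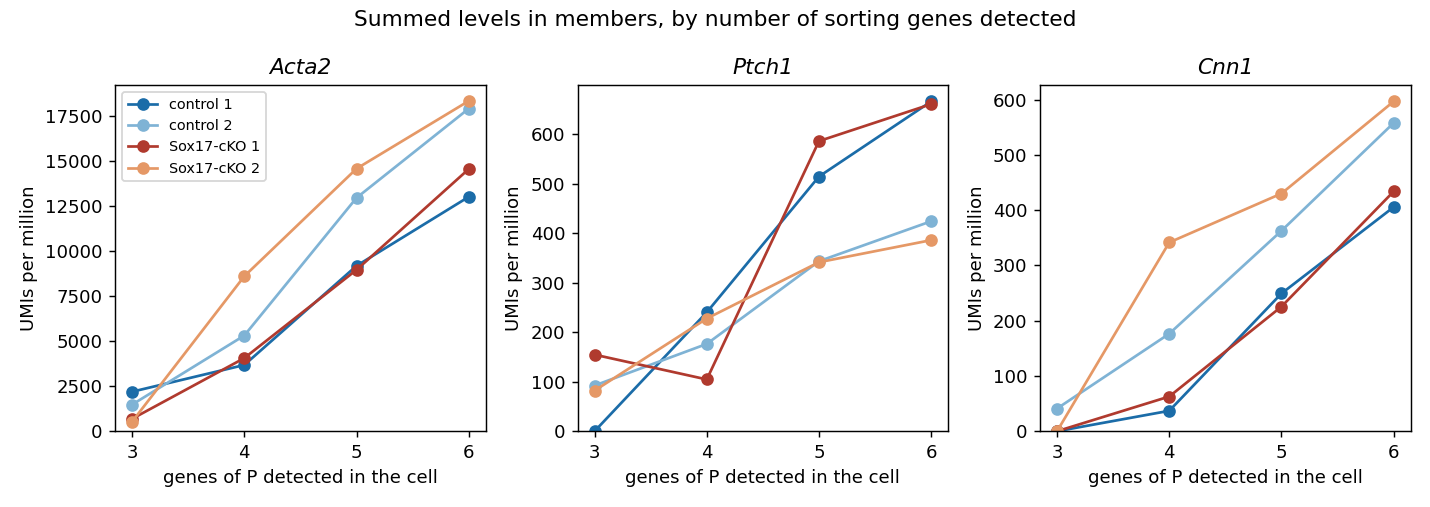
Summed levels of Acta2, Ptch1 and Cnn1 in UMIs per 1000000, against the number of P genes detected in a member, with 1 line per library. Acta2 runs from 529 to 2194 at 3 genes up to 13014 to 18337 at 6 genes, and the 3-gene points rest on 6 to 13 cells each.

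Cells near the threshold are described here without a test. Just outside it, 65 retained cells had 2 genes of P with fewer than 2 of F and of S, and their Acta2 level was 6107, 78.5, 2350.1 and 371, the first of these from 3 cells. A further 304 cells had 3 or more genes of P but as many of F or S, with Acta2 at 4265 to 6101 and the matrix gene Dcn, decorin, at 1367 to 2002 against 472 to 786 in members with all 6 genes.

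Members made up 4.56%, 15.1%, 2.64% and 15.4% of the retained cells, with exact 95% Clopper-Pearson intervals of 4.06% to 5.12%, 14.1% to 16.1%, 2.23% to 3.09% and 14.5% to 16.4%, which cover counting error only. The shares were low in replicate 1 and high in replicate 2 of both genotypes. The means were 9.84% in control and 9.02% in Sox17-cKO, a difference of -0.824 percentage points (exact two-sided permutation p = 1; the smallest p that 2 against 2 libraries allow is 0.333). The difference was 4.45 points without control 2 and 5.56 points without Sox17-cKO 1, and -6.10 and -7.20 points without control 1 and Sox17-cKO 2, so its sign followed which library was left out. Replicate 1 and replicate 2 libraries also differ in Cell Ranger version, 6.0.2 and 6.1.2 in the headers of the deposited matrices and in the submitters' processing notes. The methods name 6.0.2 alone. Germ-like cells (5 or more UMIs of Ddx4 and Dazl) numbered 2472 and 1924 in the replicate 1 libraries and 1246 and 1158 in the others, and the part of sampling or dissociation in the member share was not tested.

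Among the 4 stromal classes alone, members made up 32.8%, 35.6%, 24.0% and 43.1%. Control and Sox17-cKO averaged 34.2% and 33.5% (exact permutation p = 1). A share of captured cells does not give the number of cells in the tissue.

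**Figure D3:**
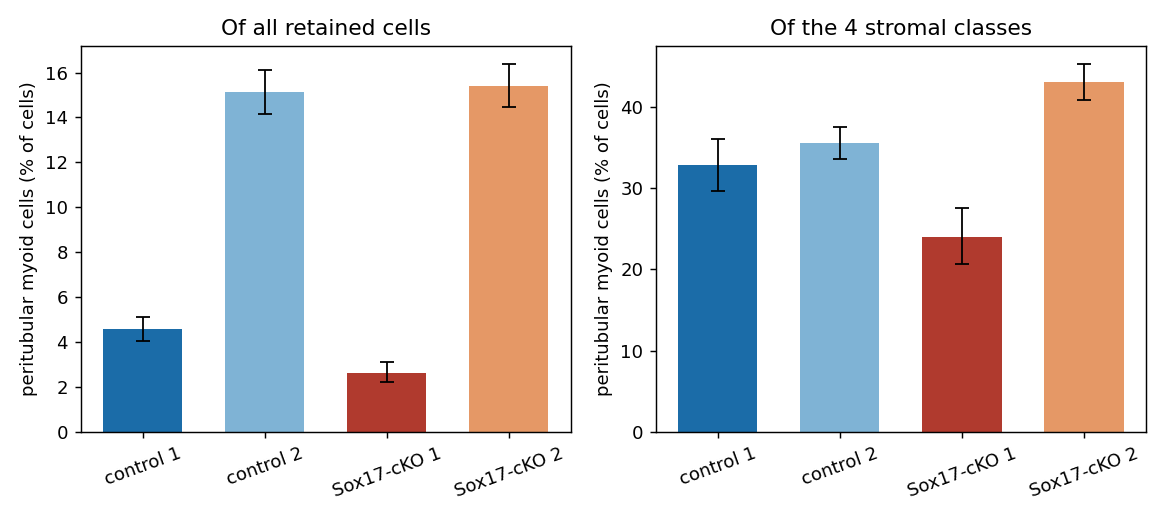
Share of peritubular myoid cells per library, in percent of all retained cells (left) and of the cells of 4 stromal classes (right), with exact 95% intervals as error bars. The left panel shows 4.56% and 2.64% in replicate 1 against 15.1% and 15.4% in replicate 2, and the right panel runs from 24.0% to 43.1%.

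The members were set beside 3 stromal classes of the same libraries. Lum/Sfrp1 cells (1988) and Igf1/Dlk1 cells (1366) were taken by the same rule with F and S in the place of P, and Rgs5 cells (247) by at least 3 Rgs5 UMIs. UMIs were summed per class and library and fitted with edgeR's quasi-likelihood test with library as a block and Benjamini-Hochberg adjustment at 0.05, and the 21 genes of the rule were not counted. The classes were drawn from these same cells by measured genes, so genes that vary with the sorting genes had to differ, and the counts and fold changes between classes are descriptions. Against Lum/Sfrp1 cells, 5092 of 12073 genes (42.2%) passed, 2716 (22.5%) as higher in the members and 2376 (19.7%) as lower, while 1713 were higher and 2044 lower without control 2 and 1645 and 1767 with DESeq2, so which direction held more genes changed. Against Igf1/Dlk1 cells, 3193 of 11689 (27.3%) passed, 1783 (15.3%) as higher and 1410 (12.1%) as lower, and with UMI totals in place of the TMM factors the split became 1217 higher and 2063 lower, as the median of all genes moved from 0.01 to -0.11. The split also turned to 1525 higher and 1548 lower below 10% mitochondrial UMIs and to 1291 and 1369 with 2000 to 4500 genes. It was 1628 and 1696 with no filter and 1403 and 1460 without control 1, and the other alternatives kept more higher genes. The count of 3193 became 1833 with DESeq2, 1959 without control 2 and 1961 without Sox17-cKO 2. Against Rgs5 cells, 2499 of 9712 (25.7%) passed, 1158 (11.9%) as higher and 1341 (13.8%) as lower.

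Most smooth muscle contractile genes were higher in the members than in Lum/Sfrp1 and Igf1/Dlk1 cells, and few were higher than in Rgs5 cells, which carry the pericyte and vascular smooth muscle gene Rgs5. Over Lum/Sfrp1 cells, 16 of 23 tested genes of the contractile list passed as higher and 4 as lower, with a median of 1.02 beside 0.04 over all genes. The list also holds the transcription factor gene Srf and the integrin gene Itga8. Over Igf1/Dlk1 cells, 21 of 22 passed as higher and none as lower (median 2.43). Over Rgs5 cells, 3 of 23 passed as higher and 9 as lower, with a median of -0.30.

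Acta2 was 1.95 ± 0.12 higher than in Lum/Sfrp1 cells and 3.94 ± 0.18 higher than in Igf1/Dlk1 cells, while its difference from Rgs5 cells was -0.21 ± 0.17, with 13503 to 23562 in that class. Cnn1 stood at 361, 513, 364 and 546 in the members against 38.1 to 157 in Lum/Sfrp1 and 9.17 to 19.4 in Igf1/Dlk1 cells. All 4 member libraries lay above all libraries of those classes. Mylk, the kinase that switches on smooth muscle myosin, stood at 2015, 2096, 1928 and 2497, and was higher than in Lum/Sfrp1 (1.07 ± 0.08), Igf1/Dlk1 (2.97 ± 0.07) and Rgs5 cells (0.81 ± 0.13). Myl9, the regulatory myosin light chain, stood at 2497, 3739, 2657 and 3487 and differed from Rgs5 cells by -0.30 ± 0.18. The Mylk range of the members also lay above that of the Rgs5 cells, 1096 to 1488, and the Myl9 ranges overlapped.

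Not every smooth muscle gene followed this order. Tagln, transgelin, stood at 2238, 3776, 2416 and 3453 in the members, overlapping the 2677 to 4769 of Lum/Sfrp1 cells and below the 11228 to 14966 of Rgs5 cells. It was lower by -0.46 ± 0.10 and -2.07 ± 0.15 against these classes, and higher than in Igf1/Dlk1 cells by 4.07 ± 0.13. Actg2, the enteric smooth muscle actin, stood at 279, 486, 335 and 462, above Lum/Sfrp1 cells (1.67 ± 0.14) and below Rgs5 cells (-1.42 ± 0.21). Of the striated muscle list, 4 of 7 passed as higher and none as lower against Lum/Sfrp1 cells, 4 and none of 6 against Igf1/Dlk1 cells, and 3 and 3 of 8 against Rgs5 cells. Tnnt1, the slow skeletal form of troponin T, stood at 116, 131, 138 and 119.9 against 12 to 16 in Rgs5 cells. Tnnc2, fast skeletal troponin C, stood at 26.4, 30.3, 19 and 27.9, with 419 UMIs in the members against 5 in Lum/Sfrp1 and 6 in Igf1/Dlk1 cells. Rgs5 cells ranged from 6 to 54.3 and overlapped the members.

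The windows from 250 bases before to 50 after the RefSeq start of Acta2 and Myl9, which in both lies inside the GENCODE gene bounds, are shown because both genes carry the contractile contrast and their windows hold CArG boxes, for which they were picked. The CArG box is the element bound by serum response factor. It was searched as the exact element and with 1 inner base other than A or T, and reads the same on both strands. Of 32851 RefSeq promoter windows, 1.63% held an exact box and 9.98% a box with at most 1 such base. Of the 22 windows of 19 genes on the contractile list, 3 (13.6%) held an exact box, those of Myl6, Myl9 and Srf. Srf encodes serum response factor itself and not a contractile protein. A box of either kind was held by 5 (22.7%), those of Acta2 and Pdlim3 among them. The boxes are in capitals, and a match is not evidence of binding. Acta2 is on the minus strand (GRCm38.p6, chr19:34255324-34255623) and Myl9 on the plus strand (chr2:156775214-156775513).
Acta2: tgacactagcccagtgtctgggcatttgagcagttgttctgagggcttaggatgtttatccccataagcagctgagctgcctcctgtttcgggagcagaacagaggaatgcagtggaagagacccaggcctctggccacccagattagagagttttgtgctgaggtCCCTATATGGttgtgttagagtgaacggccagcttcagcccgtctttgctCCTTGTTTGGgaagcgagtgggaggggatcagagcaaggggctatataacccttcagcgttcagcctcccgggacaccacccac
Myl9: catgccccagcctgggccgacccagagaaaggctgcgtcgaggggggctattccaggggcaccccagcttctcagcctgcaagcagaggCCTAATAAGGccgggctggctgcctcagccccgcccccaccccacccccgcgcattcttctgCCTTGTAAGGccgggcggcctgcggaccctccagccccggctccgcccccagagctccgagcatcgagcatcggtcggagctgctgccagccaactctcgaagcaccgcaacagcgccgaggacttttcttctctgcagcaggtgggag
In Myl9 the box at bases 90 to 99 is exact, and that at 152 to 161 and both of Acta2, at 167 to 176 and 217 to 226, hold 1 other base.

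**Figure D4:**
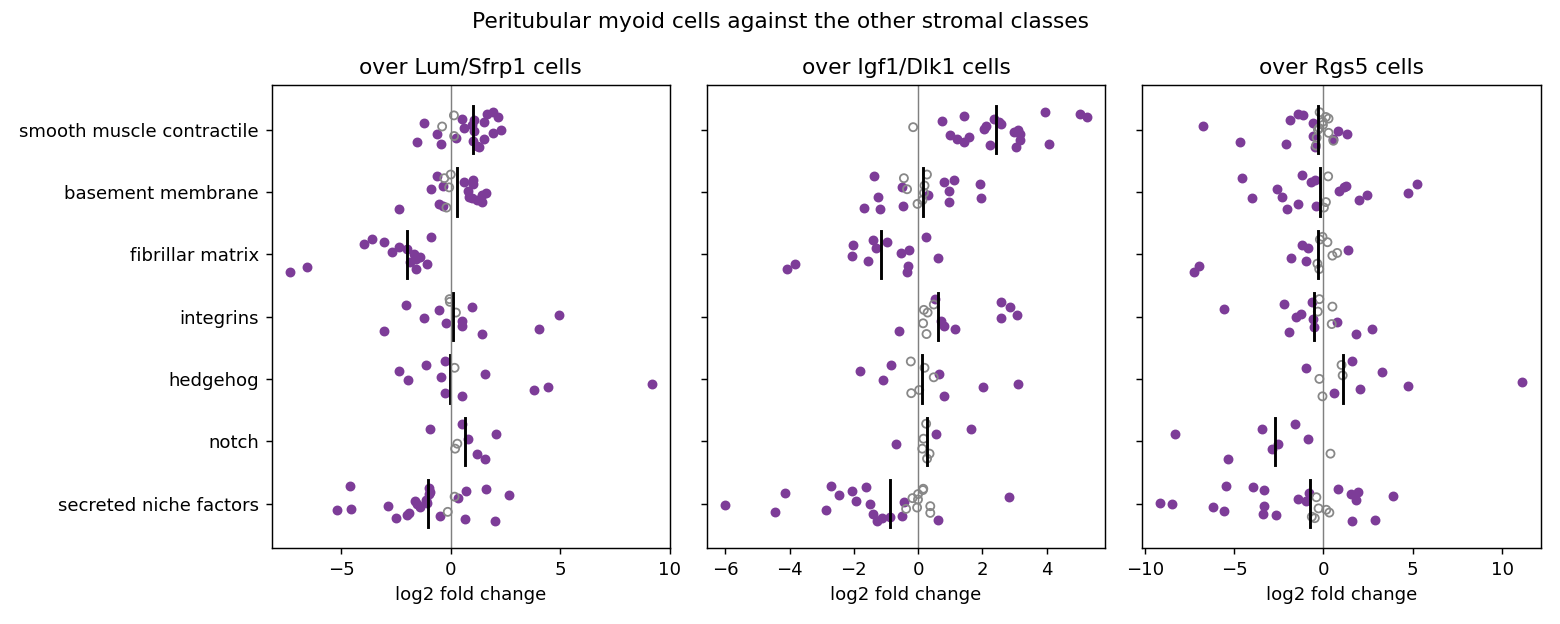
Log2 fold changes of the peritubular myoid cells over Lum/Sfrp1, Igf1/Dlk1 and Rgs5 cells for the genes of 7 lists, filled where the adjusted p was under 0.05, with a bar at the list's median. Contractile genes have medians of 1.02, 2.43 and -0.30, and fibrillar matrix genes lie at a median of -2.01 against Lum/Sfrp1 cells.

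Fibrillar matrix genes were low in the members against Lum/Sfrp1 and Igf1/Dlk1 cells, while basement membrane genes went both ways. Against Lum/Sfrp1 cells, all 15 tested fibrillar matrix genes passed as lower (median -2.01), and against Igf1/Dlk1 cells 12 of 14 were lower and 2 higher. Against Rgs5 cells, 6 of 14 were lower, 1 higher and 7 did not pass. Lum/Sfrp1 cells were chosen for Lum and collagen genes such as Col5a2, so lower matrix levels in the members were partly built into the comparison with them. Col1a1, a chain of type I collagen, stood at 1321, 2150.0, 1574 and 2243 against 14343 to 31259 in Lum/Sfrp1 cells. Col3a1, type III collagen, stood at 1096, 1351, 1260.3 and 1217 and was lower than in all 3 classes (-3.95 ± 0.09, -2.02 ± 0.11 and -1.20 ± 0.33). Eln, elastin, went both ways, at 1797, 1522, 1480.3 and 1564, below Lum/Sfrp1 cells (-1.41 ± 0.09) and above Igf1/Dlk1 cells (0.62 ± 0.07).

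Of 20 tested basement membrane genes, 10 passed as higher and 6 as lower against Lum/Sfrp1 cells, 7 and 6 against Igf1/Dlk1 cells, and 7 and 10 against Rgs5 cells. Col4a4, which assembles with the sorting gene Col4a3 in one collagen network, stood at 2979.8, 3138, 2982 and 3229.8. It stood at 32.3 to 133 in Rgs5 cells (5.25 ± 0.24), and was 1.01 ± 0.08 and 1.94 ± 0.06 above the other classes. Col4a1, a chain of the network found in most basement membranes, stood at 1409, 1114, 1636 and 971, and was higher than in Lum/Sfrp1 cells (1.02 ± 0.07) but lower than in Rgs5 cells (-0.45 ± 0.15). Lama2, a laminin chain known from muscle, stood at 451, 385, 418 and 344 and was higher than in all 3 classes (1.41 ± 0.08, 0.31 ± 0.07 and 2.47 ± 0.18). Nid1, nidogen, was lower than in all 3 (-0.35 ± 0.08, -0.48 ± 0.07 and -0.42 ± 0.14).

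Among the integrins, the cell's receptors for these matrices, 6 of 14 passed as higher and 5 as lower against Lum/Sfrp1 cells, 8 and 1 of 14 against Igf1/Dlk1 cells, and 3 and 8 of 15 against Rgs5 cells. Itga7, the muscle receptor for laminin, stood at 38.8, 60.8, 30.2 and 72.2 against 0.429 to 3.13 in Lum/Sfrp1 and 2.29 to 11.4 in Igf1/Dlk1 cells, and was below the 125 to 195 of Rgs5 cells. Itgb3, a receptor subunit for vitronectin, stood at 24.8, 34.7, 25.9 and 31.5 and was higher than in all 3 classes (4.03 ± 0.20, 1.15 ± 0.16 and 2.74 ± 0.45). Itgb5 was lower than in all 3 (-3.03 ± 0.11, -0.59 ± 0.17 and -1.94 ± 0.28).

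The hedgehog targets Ptch1, Hhip and Gli1 stood higher in the members than in the other stromal classes, while the list as a whole went both ways. Dhh, the ligand, stood at 2.69 to 8.18 in the members and at 87.7 to 243 in Sertoli-like cells. Ptch1, its receptor and a target of the pathway, stood at 616, 400.4, 597 and 367 in the members, against 17.3 to 29.6 in Lum/Sfrp1, 99.1 to 146 in Igf1/Dlk1 and 12.8 to 41.6 in Rgs5 cells. No library of another class reached the lowest member library, and the differences were 4.46 ± 0.10, 2.02 ± 0.10 and 4.73 ± 0.21. Ptch1 was detected in 1719 of 2074 members, or 79.5% to 94.0% per library.

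Hhip, a membrane-bound decoy for hedgehog ligands and itself a target, stood at 166, 134, 119.9 and 130.04. It had 2020 UMIs in the members, 3 in Lum/Sfrp1 cells, 137 in Igf1/Dlk1 cells and none in Rgs5 cells, where a count of 0 over the class allows a level of up to 1.68, so the members were at least 80.6-fold higher than that class. Gli1, the transcriptional effector and target, stood at 34.5, 31.8, 37.1 and 50.3, and was higher than in the 3 classes (1.56 ± 0.13, 0.64 ± 0.16 and 3.27 ± 0.42). Gas1, a co-receptor, went the other way, at 71.7, 111, 88.9 and 116, below all 3 classes (-2.39 ± 0.08, -1.82 ± 0.09 and -0.99 ± 0.22). Of the whole list, 5 of 12 passed as higher and 6 as lower against Lum/Sfrp1 cells, 4 and 3 of 12 against Igf1/Dlk1 cells, and 6 and 1 of 11 against Rgs5 cells.

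**Figure D5:**
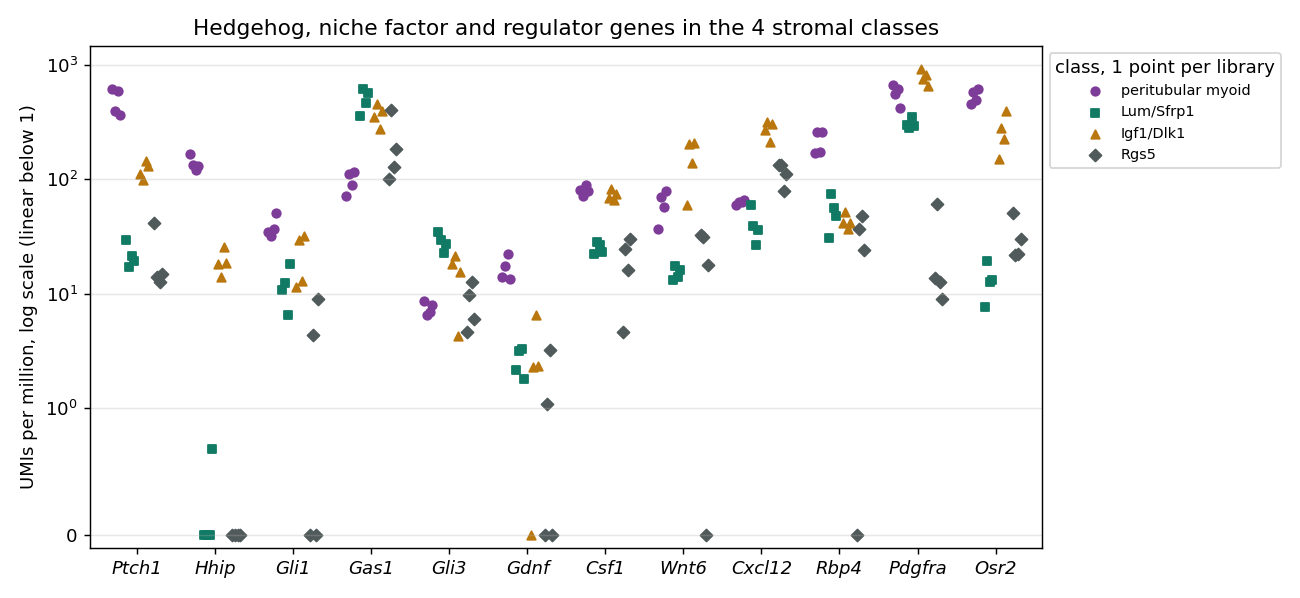
Levels of hedgehog genes, secreted factors and regulators in UMIs per 1000000 on a log scale that is linear below 1, with 1 point per library for each of 4 stromal classes. Ptch1 and Hhip of the members lie above every other point of their gene, Gas1 of the members lies below the Lum/Sfrp1 and Igf1/Dlk1 points, and Cxcl12 lies below the Igf1/Dlk1 points.

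Secreted factors of the stem cell niche passed as lower more often than as higher. Against Lum/Sfrp1 cells, 6 of 24 tested factors passed as higher and 16 as lower. Against Igf1/Dlk1 cells the numbers were 2 and 16 of 27, and against Rgs5 cells 7 and 13 of 26. Gdnf, the growth factor that maintains spermatogonial stem cells, stood at 14, 17.4, 22.4 and 13.5 and was found in 212 of 2074 members, or 8.11% to 14.8% per library. It was higher than in all 3 classes (2.65 ± 0.22, 2.83 ± 0.29 and 3.91 ± 0.62), and Sertoli-like cells, another known source, stood at 3.91 to 7.48. In germ-like cells, which should lack it, 0.0803% to 0.769% of cells had a UMI at a median of 7935.5 to 9209 UMIs per cell. Csf1, a macrophage growth factor, stood at 80.9, 71.8, 89.7 and 79.3, above Lum/Sfrp1 (1.62 ± 0.10) and Rgs5 cells (1.92 ± 0.27), and differed by 0.15 ± 0.10 from Igf1/Dlk1 cells. Wnt5a and Wnt6, Wnt ligands, were both higher than in Lum/Sfrp1 cells (0.64 ± 0.08 and 2.03 ± 0.12), and Wnt6 was lower than in Igf1/Dlk1 cells (-1.27 ± 0.10). The chemokine Cxcl12 stood at 59.9, 63.2, 63.8 and 66.5 against 211 to 316 in Igf1/Dlk1 cells. Tgfb2 stood at 29.1, 44.2, 31.9 and 42.3 and was lower than in all 3 classes (-1.90 ± 0.09, -1.39 ± 0.11 and -3.39 ± 0.15). Sctr, the secretin receptor, had 1 UMI in all members together, in control 2, beside the high level of its ligand Sct.

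Of the retinoic acid genes other than Cyp26b1, 3 of 13 passed as higher and 3 as lower against Lum/Sfrp1 cells, and 2 and 5 of 13 against Igf1/Dlk1 cells. Rbp4, the secreted carrier of retinol, stood at 170.4, 261, 173 and 260.3 and was higher than in all 3 classes (2.07 ± 0.12, 2.53 ± 0.10 and 2.95 ± 0.30). Dhrs3, which reduces retinaldehyde, stood at 23.2, 46.1, 37.1 and 45 and was lower than in all 3 (-1.81 ± 0.10, -0.56 ± 0.12 and -1.36 ± 0.21). Aldh1a1, a retinoic acid synthetic enzyme, stood at 235, 291, 378 and 274, between Lum/Sfrp1 cells (138 to 208) and Igf1/Dlk1 cells (380.5 to 530.0). Against Rgs5 cells, 3 of 9 passed as higher and 2 as lower.

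The receptors of platelet-derived growth factor ran opposite ways between the members and Rgs5 cells. Pdgfra, a platelet-derived growth factor receptor of gonadal stroma, stood at 676, 563, 614 and 426 against 8.99 to 60.5 in Rgs5 cells (4.31 ± 0.31), and Pdgfrb, the receptor of pericytes, at 22.1, 17.4, 18.1 and 17.1 against 259 to 567 (-4.43 ± 0.19). Notch pathway genes passed as lower in 7 of 8 against Rgs5 cells, with Notch3 at -5.35 ± 0.16. Against Lum/Sfrp1 cells 5 of 8 passed as higher and 1 as lower, with the target Heyl at 51.8, 73.8, 71.6 and 71.5 (2.07 ± 0.10). The receptors for Tgfb, Pdgf, Fgf, Wnt and Rspo counted 6 higher and 10 lower of 20 against Lum/Sfrp1 cells, 3 and 5 of 19 against Igf1/Dlk1 cells, and 3 and 6 of 19 against Rgs5 cells.

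Nr4a1, an orphan nuclear receptor and immediate early gene, was higher than in Lum/Sfrp1, Igf1/Dlk1 and Rgs5 cells (1.95 ± 0.10, 0.95 ± 0.12 and 0.93 ± 0.28). Among transcription factors of the gonad, 7 of 20 passed as higher and 11 as lower against Lum/Sfrp1 cells, 2 and 11 of 18 against Igf1/Dlk1 cells, and 5 and 4 of 17 against Rgs5 cells. Osr2, a zinc finger factor, stood at 461, 580.3, 497 and 621 against 7.73 to 19.4 in Lum/Sfrp1 cells (5.30 ± 0.12), and its relative Osr1 at 58.8, 53.2, 54.3 and 69.2 against 198 to 253 in Igf1/Dlk1 cells (-1.83 ± 0.09). Tcf21, a factor of the gonadal stroma, was higher than in all 3 classes (0.52 ± 0.08, 0.43 ± 0.06 and 2.34 ± 0.19). Wt1, a Sertoli cell and interstitial factor, stood at 9.71, 6.49, 17.3 and 11 against 121 to 129 in Lum/Sfrp1 cells. Ednra, the endothelin receptor that triggers contraction, stood at 167, 183, 192 and 188, above Lum/Sfrp1 (1.34 ± 0.08) and Igf1/Dlk1 cells (0.76 ± 0.08) and at a difference of -0.08 ± 0.14 from Rgs5 cells, whose range of 172 to 226 overlapped.

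Of 9496 genes tested against all 3 classes, 474 passed as higher in the members each time and 273 as lower each time. Fbxo32, a muscle ubiquitin ligase subunit known as atrogin-1, stood at 445, 479, 443 and 449 against 5.15 to 7.9 in Lum/Sfrp1, 31.3 to 45.8 in Igf1/Dlk1 and 24 to 73.9 in Rgs5 cells. Etv1, an ETS factor, stood at 257, 223, 231 and 237 against 3.72 to 5.93 in Lum/Sfrp1 cells, and Acsbg1, an acyl-CoA synthetase, at 457, 680.3, 518 and 764 against 11.6 to 19. In Igf1/Dlk1 cells Etv1 reached 75.6, and Acsbg1 stood at 172 to 478, overlapping the members, with 186 to 324 in Sertoli-like cells. Rprml stood at 132, 255, 153 and 268 against at most 3.39 in Lum/Sfrp1, 100.2 in Igf1/Dlk1 and 3 in Rgs5 cells. On the low side, Col14a1 stood at 9.17, 13, 10.4 and 10.9 against 554 to 637 in Lum/Sfrp1 cells and Igfbp3 at 0.863 to 4.09 against 179 to 389, and both were lower than in all 3 classes. Prlr, the prolactin receptor, stood at 11.3 to 30.2 against 190.2 to 291 in Igf1/Dlk1 cells, and its levels overlapped those of the other classes. Gja4, a vascular connexin, stood at 0 to 0.863 against 242 to 425 in Rgs5 cells.

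Some of the genes high in all 3 comparisons were named after their values were seen, because they are known from other tissues. Cacna1s, the calcium channel of skeletal muscle, stood at 17.8, 22.5, 10.4 and 14.4, with 268 UMIs in the members against 2, 17 and 0 in Lum/Sfrp1, Igf1/Dlk1 and Rgs5 cells. Myo18b, a striated muscle myosin, had 290 UMIs against 7, 10 and 0, and Nos1, neuronal nitric oxide synthase, 206 against 6, 9 and 0. Nrxn3, a synaptic adhesion gene, stood at 28.6, 41.2, 44.9 and 59.2 and Prkcb, a protein kinase C, at 118, 132, 125 and 143 against 1.32 to 3.39 in Lum/Sfrp1 cells. For the genes without a UMI in Rgs5 cells, the members were at least 8.21-fold (Nos1), 10.7-fold (Cacna1s), 11.6-fold (Myo18b) and 27.8-fold (Nrxn3) higher.

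The targeted gene was then checked. Sox17 had 0, 5, 0 and 3 UMIs in the members, in 0, 4, 0 and 3 cells, and a count of 0 allows up to 1.07% of the members of control 1 and 2.01% of those of Sox17-cKO 1 to have a UMI, a limit on cells with a UMI and not on cells that express the gene. These counts cannot show a loss of Sox17 in the members. In cells with both Pax8 and Cdh1, markers of the RT epithelium (13, 34, 8 and 37 cells), Sox17 stood at 427, 336, 101 and 36.2, lower in both Sox17-cKO libraries than in both controls. Nr5a1, whose promoter drives Cre, had 29, 144, 35 and 229 UMIs in the members, a level of 15.6, 22.8, 30.2 and 40.7, against 51 to 137 in Sertoli-like cells. Its Sox17-cKO over control difference was 0.82 ± 0.30 (edgeR adjusted p = 0.9997, and 0.0354 with the replicate number as a block). Both Sox17-cKO libraries lay above both controls, and the genotypes also did not overlap in 23.3% of all tested genes. In the same members the summed level of 6 Leydig cell markers was 16.2, 154, 156 and 165. The part of other cells' RNA in the Nr5a1 counts was not tested.

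The number of genes called between Sox17-cKO and control members depended on whether the replicate number entered the fit. Without it, in edgeR's quasi-likelihood test over the 4 libraries, 0 of 11465 genes (0.0%) had an adjusted p under 0.05. There 97 (0.846%) had an unadjusted p under 0.05, and DESeq2 also called 0. With no gene changed, a calibrated test gives a share near 0.05, so the 0 calls do not show that nothing changed. With the replicate number as a block, 60 of 11465 genes (0.523%) passed, 32 higher and 28 lower, and 670 had an unadjusted p under 0.05 in edgeR's test. In these libraries the block also separates the Cell Ranger versions, and it leaves 1 residual degree of freedom. The labels do not say that same-numbered libraries share a litter or day. In 2670 genes (23.3%) the 2 genotypes did not overlap. Without the block, the median of the 24 genes of the contractile list was -0.08 beside 0.00 over all genes. These 24 include the sorting gene Myh11, measured in cells chosen partly for carrying it. Of the 24, 3 did not overlap between genotypes, and Myh11 was not among them. Acta2 differed by -0.0047 ± 0.30, with a 95% interval of -0.67 to 0.66. Hhip differed by -0.30 ± 0.24, with 166 and 134 in the controls and 119.9 and 130.04 in Sox17-cKO, and Pdgfra by -0.31 ± 0.27, with overlapping libraries. Since each library pools 3 pups, these tests measure the spread between pools.

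Leaving out a library changed the count: 18 genes passed without control 1, 11 without control 2, 9 without Sox17-cKO 1 and 0 without Sox17-cKO 2, where the lone library of a genotype was assumed to vary like the other pair. The sorting genes were measured in cells chosen for carrying them, so their own values are given as levels only.

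Among genes whose 2 genotypes did not overlap, those with the smallest unadjusted p all had an adjusted p of 0.9997 in edgeR's test without the block. All 10 passed with it, the weakest being Gm11808 at an edgeR adjusted p of 0.0494. The block fit used the same sums from which these genes were picked, so their passing is not separate evidence. Higher in Sox17-cKO were Vsig1 (0.539, 1.27, 11.2 and 4.8), Ptpre (1.08, 5.54, 19 and 13.5), Jade3 (14, 8.08, 26.7 and 24.2), Kif21a (9.71, 6.18, 24.2 and 16.7) and AC149090.1 (17.3, 12, 41.4 and 29.5). The first 4 of these stood at 109 to 169.9, 129 to 224, 158 to 211 and 254 to 314 in Sertoli-like cells. In the members of control 1, where 1 UMI is a level of 0.539, Vsig1 and Ptpre lay below the 1.62 that 3 UMIs give. Fewer than 3 of 10 Sertoli cell markers were detected in 124 of 280, 600 of 782, 34 of 149 and 650 of 863 members. The summed level of the 10 Sertoli cell markers in the members was 934, 534, 1211 and 677, with none of the 10 at 0 and the genotypes overlapping. That of 8 germ cell markers was 267, 82.2, 299 and 199, and that of 6 Leydig cell markers 16.2, 154, 156 and 165. In the genotype comparison without the block, the median change was 0.43 over 8 tested Sertoli and 0.95 over 6 Leydig cell markers, beside 0.00 over all genes. Over 9 germ cell markers it was 0.55, which is the value of Dazl itself. The rule limits Dazl and Ddx4 in the members, so this median is a description only. The part of other cells' RNA in these values was not tested. Lower in Sox17-cKO were Sik1, a salt-inducible kinase (42.6, 47.2, 20.7 and 22.9), Ccdc85b (92.2, 141, 64.7 and 29.7), Gstp1, a glutathione transferase (32.9, 52.7, 26.7 and 10.5), the heat shock gene Hspa1a (141, 118, 71.6 and 86.5) and Gm11808 (55, 48.5, 30.2 and 33.4). Hspa1a has a near-identical neighbour, Hspa1b, so its reads may be divided between the copies. These differences were not confined to the members. In Lum/Sfrp1 cells the libraries of the 2 genotypes also lay apart in the same direction, except for Vsig1 and Kif21a. How many of all genes lay apart in that class was not counted, so this is a description. Ccdc85b stood there at 48.1, 59.4, 33.5 and 18.3, and AC149090.1 at 12.5, 16.3, 40.0 and 36.3. The gap of Sik1 was smaller there than in the members, at 26.6, 25.2, 22.3 and 22.4. That of Gstp1 was narrow between control 1 and Sox17-cKO 1, at 27.9, 42.3, 27.0 and 4.97. In Igf1/Dlk1 cells Gstp1 stood at 34.4, 54.2, 38.7 and 9.41, with overlapping genotypes, and Jade3 and Kif21a also overlapped. AC149090.1, Ccdc85b and Gm11808 lay apart in Igf1/Dlk1 cells in the same direction as in the members.

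A further model asked whether the genotype change of the members differed from that of Lum/Sfrp1 cells of the same libraries, and 15 of 12093 genes (0.124%) passed, 12 (0.0992%) with a positive difference, members minus Lum/Sfrp1 cells, and 3 (0.0248%) with a negative one. Cnn1 was one of them. In the members it stood at 361 and 513 in control and 364 and 546 in Sox17-cKO, and in Lum/Sfrp1 cells at 157 and 127 in control and 38.1 and 97.3 in Sox17-cKO, a difference of changes of 1.12 ± 0.22 (edgeR adjusted p = 0.0150). The genotypes overlapped in the members, and both Sox17-cKO libraries lay below both controls in Lum/Sfrp1 cells. Hspa1a stood at 616 and 423 in control and 131 and 168 in Sox17-cKO in Lum/Sfrp1 cells, and at 141, 118, 71.6 and 86.5 in the members (1.04 ± 0.19, edgeR adjusted p = 0.00419). Of 14 genes of immediate early response and stress, 1 passed and 9 had an unadjusted p under 0.05 in this edgeR test, beside 398 of all 12093 genes. Their median difference was 0.50, beside -0.02 over all genes. In the members alone the median genotype change of these 14 genes was -0.20. The positive difference therefore does not mean that these genes rose in the Sox17-cKO members. With DESeq2 in place of edgeR, 1 gene passed, and Cnn1 and Hspa1a did not (adjusted p = 0.153 and 0.0571). In edgeR's test Cnn1 also lost its call without control 1 (adjusted p = 0.129), with at least 4 genes of P (adjusted p = 0.105), below 10% mitochondrial UMIs (adjusted p = 0.0950) and with UMI totals (adjusted p = 0.0544), and Hspa1a without Sox17-cKO 2 (adjusted p = 0.0910).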

How the data were processed

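Single cells were captured with the 10x Genomics 3' kit and, per the study's methods, reads were aligned to mm10 and counted by the authors with Cell Ranger 6.0.2. The headers of the deposited matrices name 6.0.2 for control 1 and Sox17-cKO 1 and 6.1.2 for control 2 and Sox17-cKO 2. The submitters' processing notes name the same versions, so the counts used here did not all come from 6.0.2. The deposited values are UMI counts per gene and barcode, 1 matrix per library, with 31053 features, 13364, 9388, 12262 and 10987 barcodes and 89969877 to 107203219 UMIs per library. Cell types were not taken from a deposited annotation.

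Barcodes with 1000 to 4500 detected genes were retained. The mitochondrial limit in the study's methods was not applied, and no doublet caller was run, so doublets were limited only by the gene range and the germ cell and Rgs5 limits. Sertoli-like cells carried at least 5 of 10 Sertoli markers, at most 1 UMI of Ddx4 and Dazl together, and fewer than 3 genes each of P, F and S. The members and gene lists were chosen with earlier results of these data known.

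Counts were summed per class and library. Sums were tested with edgeR 4.0.16 (quasi-likelihood, TMM factors, filterByExpr, Benjamini-Hochberg at 0.05) in R 4.3.3, with library as a block between classes, and the code was tested on simulated data. DESeq2 1.42.0, UMI totals, no filter, stricter cell filters, a replicate block and leaving out each library were alternatives, of which UMI totals were added after seeing the data. Shares were compared by an exact permutation test (SciPy 1.17.1). Levels are UMIs per 1000000 UMIs of the class in a library and are not divided by gene length, since the kit counts 3' ends. Counting intervals are exact Clopper-Pearson 95%, and the limit at a count of 0 is 3 UMIs or cells.

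Named genes were the sorting genes, Acta2, Sox17 and Nr5a1, up to 8 per list by level or by contrast to Lum/Sfrp1 cells, and from each test at most 5 genes per direction, ranked by adjusted p among those with agreeing libraries, or, where fewer than 5 passed between genotypes, with the smallest unadjusted p and libraries that did not overlap. Other genes were named after their values were seen. Of the feature identifiers, 99.9% were found in GENCODE vM21. Promoter windows came from RefSeq (GRCm38.p6).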

Additional observations from a re-analysis of the deposited data

Results flagged for a closer look

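The genotype change of the members differed from that of Lum/Sfrp1 cells in 15 genes by the test of the difference itself (edgeR, library sums, adjusted over 12093 genes), and each is given as the member change minus the Lum/Sfrp1 change on the log2 scale. In some of these genes most UMIs of a class in a library came from 1 cell, or from 2 in the case of Krt7. Slpi (11.73) had 67 of its 69 member UMIs of Sox17-cKO 2 in 1 cell, and 67 of 93 in 1 Lum/Sfrp1 cell of control 2. Cxcl2 (-6.73) had 109 of 115 UMIs in 1 member of control 2, and 124 of 125 in 1 Lum/Sfrp1 cell of Sox17-cKO 1. In Lum/Sfrp1 cells of control 2, 1 cell held 96 of 116 UMIs of Hsd3b1 (5.88), 66 of 78 of Cyp17a1 (3.84) and 52 of 54 of Kcnk3 (4.53), and 2 cells held all 43 of Krt7 (8.11). Ccl2 (-3.53) had 82 of 86 UMIs of Sox17-cKO 1 in 1 Lum/Sfrp1 cell. Fcer1g (-3.89) had 19 of 27 and 16 of 28 UMIs in 1 Lum/Sfrp1 cell of Sox17-cKO 1 and of Sox17-cKO 2, and Fmo2 (1.70) had 34 of 67 in 1 member of Sox17-cKO 2. A sum over cells does not separate such cells from a change of the class.

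The other differences were Mgarp 1.26, Atp1b1 1.24, Cnn1 1.12, Cited2 1.10, Hspa1a 1.04 and Prss35 0.91.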

How the results depend on the processing

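Between genotypes the 0 called genes became 8 with no filter on low counts and 0 to 18 when a library was left out, and stayed 0 under the other alternatives without a block. Replicate numbers 1 and 2 occur in both genotypes, and deviations of same-numbered libraries correlated at 0.438 over 11465 genes, but the labels state no shared litter or day and there are only 2 pairs, so the numbers were not taken as pairs; with a replicate block 60 genes passed, 32 higher and 28 lower. The Acta2 genotype difference changed sign with at least 4 genes of P (0.035), below 10% mitochondrial UMIs (0.017), with fewer than 3 Sertoli markers (0.085) and with UMI totals (0.050), and ran from -0.26 to 0.26 over left-out libraries. The difference in share ran from -7.20 to 5.56 points over left-out libraries.

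Against Lum/Sfrp1 cells the split of 2716 higher and 2376 lower became 1713 and 2044 without control 2, 1848 and 1942 without Sox17-cKO 2, 2138 and 2313 with fewer than 3 Sertoli markers, 2580 and 2770 with no filter, and 1645 and 1767 with DESeq2. Against Igf1/Dlk1 cells the count was 1833 with DESeq2 and 1959 to 3228 over left-out libraries, with 1959 without control 2 and 1961 without Sox17-cKO 2. There the split of 1783 higher and 1410 lower became 1525 and 1548 below 10% mitochondrial UMIs and 1291 and 1369 with 2000 to 4500 genes. It was 1628 and 1696 with no filter, 1403 and 1460 without control 1, and 1217 and 2063 with UMI totals. Against Rgs5 cells Acta2 ran from -0.41 to 0.050 and Cnn1 from -0.27 to 0.40 over left-out libraries. The 15 differences of genotype changes became 7 with at least 4 genes of P, 6 below 10% mitochondrial UMIs, 29 with fewer than 3 Sertoli markers, 39 with no filter, 1 with DESeq2 and 5 to 44 over left-out libraries. Among them Cyp17a1 turned to -0.000197 with fewer than 3 Sertoli markers and ran from -0.20 to 4.93 over left-out libraries, and Ccl2 from -3.88 to 0.95. The causes were not tested. No value named against Lum/Sfrp1 or Igf1/Dlk1 cells changed sign (0 of 946 and 0 of 814 values). The smallest sum in the main genotype comparison was Sox17-cKO 1, with 149 members and 1159254 UMIs. With fewer than 3 Sertoli markers this library held 34 members. The part of depth in these counts was not tested.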

Other observations

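Fos and Egr1, immediate early genes that respond within minutes to signals and to tissue dissociation, were picked after their values were seen. Fos was at 4691, 4511, 4871 and 4478 and was higher than in Lum/Sfrp1 (0.55 ± 0.10), Igf1/Dlk1 (0.36 ± 0.05) and Rgs5 cells (0.69 ± 0.13). Egr1 was higher than in the same classes by 0.68 ± 0.08, 0.34 ± 0.06 and 1.85 ± 0.21. The heat shock gene Hspa1a was lower than in all 3 (-1.54 ± 0.15, -0.91 ± 0.10 and -1.07 ± 0.30). Of 14 genes of immediate early response and stress, 6 passed as higher and 4 as lower against Lum/Sfrp1 cells, 6 and 5 against Igf1/Dlk1 cells, and 6 and 2 against Rgs5 cells. These counts are descriptions, as for the other class comparisons.

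Of 19 cell cycle genes, 2 passed as higher and 7 as lower against Lum/Sfrp1 cells, 0 and 2 against Igf1/Dlk1 cells, and 0 and 7 against Rgs5 cells. Cdkn1c, a cyclin-dependent kinase inhibitor, was lower than in all 3 classes (-1.71 ± 0.14, -2.62 ± 0.12 and -1.64 ± 0.30). Receptors and channels of contraction split by class, with 4 of 17 higher and 5 lower against Lum/Sfrp1 cells, 6 and 5 of 15 against Igf1/Dlk1 cells, and 1 and 11 of 16 against Rgs5 cells. Itpr1, an intracellular calcium release channel, was higher than in all 3 (1.19 ± 0.08, 1.16 ± 0.10 and 1.05 ± 0.19), and Agtr1a, an angiotensin receptor, was lower than in Rgs5 cells (-5.60 ± 0.40).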
